A study of Homo sapiens with 20 samples.

Results

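The mitochondrial ribosomal protein genes are the nuclear genes with MRPL or MRPS symbols, and they encode most proteins of the large and small subunits of the mitochondrial ribosome. They were chosen by symbol, with MRPL55 left out by name, from the genes with a peak in at least 1 iCLIP library. This gave 69 of 19362 genes. MRPS36 was among them by its symbol, but it was in none of the lists of ribosome subunits used here. iCLIP (individual-nucleotide crosslinking and immunoprecipitation) sequences the RNA that was crosslinked by ultraviolet light to an immunoprecipitated protein, and each peak is a stretch of RNA where such reads pile up. The libraries came from T7-tagged hnRNPA1 overexpression cells and from control cells, both of the HEK293T TREX FLP-In line, a human embryonic kidney line built for inducible expression of an inserted gene. U2AF2 and SRSF1 were each immunoprecipitated in 3 overexpression and 3 control samples and hnRNPA1 in 2 and 2, and polyadenylated RNA was sequenced from 2 and 2.

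Cells of both conditions received tetracycline for 24 h, so the drug that switches the transgene on was shared by the controls. Both lines were selected for 3 days with blasticidin, together with hygromycin for the T7-hnRNPA1 inducible line and zeocin for the control line, so that the second selection drug differed between conditions along with hnRNPA1. Nuclear extracts were used for iCLIP and whole-cell extracts for RNA-seq. The labels do not say whether replicates came from separate cultures, and the p-values below measure the spread between these samples only. Reads in peaks depend on how much of a transcript is present as well as on how much of it is bound, and in these bulk libraries the number of cells, the RNA per cell and the binding cannot be told apart.

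The mitochondrial ribosome translates the few proteins that the mitochondrial genome encodes, all of them subunits of the respiratory chain and the ATP synthase. Its proteins are made in the cytosol from nuclear transcripts that are spliced like other pre-mRNAs, and some descend from bacterial ribosomal proteins while others are found in mitochondria only. U2AF2 is the large subunit of the U2 auxiliary factor, which binds the polypyrimidine tract before a 3′ splice site, and SRSF1 is an SR protein that binds exonic enhancers and promotes splicing. hnRNPA1 is an abundant nuclear RNA-binding protein that often acts as a splicing repressor. The study asked how raised hnRNPA1 changes where U2AF2 and SRSF1 meet RNA.

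Reads in peaks of at least 6 reads numbered 2317615 to 3291468 per U2AF2 library in overexpression cells against 702563 to 1158060 in control cells. They numbered 175293 to 329448 per SRSF1 library in overexpression cells against 125082 to 173766 in control cells, and 549365 to 575471 per hnRNPA1 library in overexpression cells against 2508821 to 2973275 in control cells. U2AF2 was therefore read more deeply in overexpression cells, and hnRNPA1 more deeply in control cells, and values below are normalised reads, that is reads in a gene's peaks divided by a library size factor. The HNRNPA1 transcript itself carried 541 and 673 normalised hnRNPA1 reads in overexpression cells against 522 and 525 in control cells. The tagged protein was not measured in these files. Of the 69 genes, 62 had a peak of at least 6 reads, and the other 7 (MRPL11, MRPL12, MRPL28, MRPL40, MRPL53, MRPL54 and MRPS24) had only smaller peaks in U2AF2 overexpression replicate 3, the 1 library listed down to 3 reads. That library also gave versioned gene IDs and stood apart from its replicates, with a chi-square of 43.1 and 41.8 per gene against replicates 1 and 2, where those 2 differed by 4.03. MRPL46 had its peaks of at least 6 reads there alone.

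The mitochondrial ribosomal protein genes took a larger share of the U2AF2 reads in overexpression cells than in control cells, and a smaller share of the SRSF1 and hnRNPA1 reads. Their share of U2AF2 reads was 0.173%, 0.179% and 0.178% in the overexpression libraries against 0.102%, 0.126% and 0.113% in the control libraries. Their share of SRSF1 reads was 0.0913%, 0.103% and 0.0907% in overexpression against 0.148%, 0.137% and 0.146% in control. For hnRNPA1 the shares were 0.149% and 0.15% in overexpression against 0.261% and 0.270% in control. The conditions did not overlap for any of the 3 proteins. With total reads as the scale, the median log2 change in U2AF2 reads was 0.56 over the 18 of these genes with a peak in every library. It was 0.80 over all 6795 such genes, so the larger U2AF2 share was not particular to this set. The medians were -0.37 over 19 of these genes and -0.16 over all 5738 for hnRNPA1, and -2.16 over 2 and -0.20 over all 1845 for SRSF1. MRPS6 alone weighed heavily in this share, and without it the means were 0.171% in overexpression against 0.0823% in control for U2AF2, 0.0904% against 0.122% for SRSF1 and 0.106% against 0.168% for hnRNPA1, in the same order of conditions. The deeper condition had the larger share for U2AF2 and hnRNPA1 and the smaller one for SRSF1, and the part of depth was not tested beyond a peak minimum scaled to depth, which gave 0.173% against 0.109%, 0.0552% against 0.107% and 0.143% against 0.246%.

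**Figure D1:**
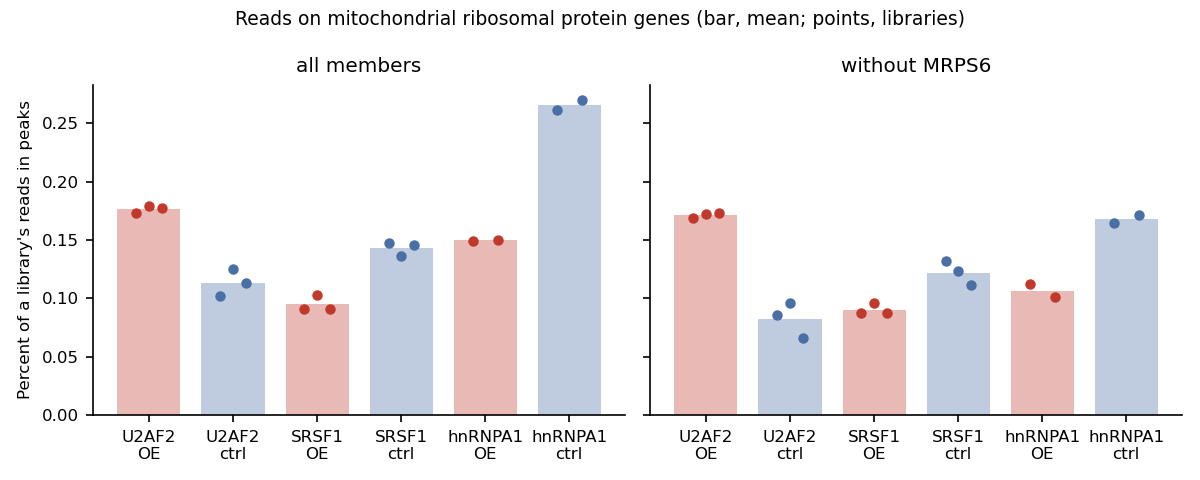
Percent of each library's reads in peaks that fell on the mitochondrial ribosomal protein genes, for all of them and without MRPS6. Bars are means and points are libraries (3 per condition for U2AF2 and SRSF1, 2 for hnRNPA1), with overexpression (OE) left of control (ctrl); for all genes of the set the U2AF2 means were 0.177% and 0.114%.

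In the U2AF2 libraries 18 of the genes had a peak in every library and could be tested, and 4 rose and 4 fell with overexpression. The genes that rose were MRPL30, MRPS5, MRPL57 and MRPS25, and those that fell were MRPS6, MRPS28, MRPS31 and MRPL33. Across all 6795 genes tested the same call was made for 61.8%, with 30.2% higher and 31.6% lower (limma, Benjamini-Hochberg adjusted p under 0.05), against 8 of the 18 genes here. Without control replicate 3 the count was 13 of 20 genes, 4 higher and 9 lower, against 4405 of all 7012. The median log2 change was -0.22 over the 18 genes and 0.02 over all genes tested. Both subunits and both origins were represented on each side except that no mitochondria-specific large-subunit gene fell. Scaling by total reads in place of size factors shifted the median of all genes by 0.77 on the log2 scale, and the split was then 7 higher and 4 lower of the 18, against 3263 higher and 1340 lower of all genes. Without overexpression replicate 3, the library that stood apart, 2 of the 18 genes were higher and 4 lower. Of all 7077 genes then tested, 1665 were higher and 1985 lower. The split of the 18 genes was the same without overexpression replicate 1 and without overexpression replicate 2. Of all genes, 1528 of 6845 were higher and 1854 lower without replicate 1. Without replicate 2, 1581 of 6857 were higher and 1911 lower.

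MRPL30, a large-subunit protein with a bacterial homologue, carried 156, 145 and 162 normalised U2AF2 reads in overexpression cells against 56.6, 46.6 and 64.8 in control cells. Every overexpression library lay above every control library. The log2 change was 1.46 ± 0.22 (SE, adjusted p = 0.0009), and it passed the test without any 1 of the 6 libraries. All MRPL30 reads also lay under peaks listed for other genes on the same strand, ENSG00000241962 and in part LIPT1, so they cannot be given to MRPL30 alone.

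MRPL57, a mitochondria-specific large-subunit protein, carried 189, 214 and 169 reads in overexpression cells against 90.5, 116 and 79.8 in control cells. The conditions were apart, and the log2 change was 1.00 ± 0.21 (adjusted p = 0.0050). Its peaks were listed under no other gene. The number of its peaks did not follow its reads, with a log2 change of -0.10.

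MRPS5, a small-subunit protein with a bacterial homologue, carried 79.9, 92.9 and 88.4 reads in overexpression cells against 59.4, 20.7 and 34.9 in control cells. The conditions did not overlap, and the log2 change was 1.28 ± 0.39 (adjusted p = 0.0224). The call was lost when any 1 overexpression library was left out (adjusted p 0.0558 to 0.0692). Peaks shared with ZNF514 held 51.1% of the MRPS5 reads, and on the peaks of MRPS5 alone the log2 change was -0.11.

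MRPS25, a mitochondria-specific small-subunit protein, carried 130, 134 and 135 reads in overexpression cells against 105, 88.0 and 64.8 in control cells. The overexpression libraries were close together and all above the control libraries. The log2 change of 0.66 ± 0.23 (adjusted p = 0.0391) was the smallest of the 8, and it missed the threshold in 5 of the 6 leave-one-out fits, where adjusted p reached 0.110.

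MRPS6, a small-subunit protein with a bacterial homologue, had the lowest log2 change of the set. It carried 45.1, 79.0 and 55.6 reads in overexpression cells against 328, 603 and 917 in control cells. The log2 change was -3.26 ± 0.39 (adjusted p = 0.0003), with no overlap between conditions. All of its reads lay under peaks also listed for ENSG00000214955 or for SLC5A3, the gene of a sodium-coupled inositol transporter, in every library, so this change belongs to a shared stretch of RNA.

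MRPS31, a mitochondria-specific small-subunit protein, carried 39.3, 26.2 and 30.3 reads in overexpression cells against 102, 137 and 71.4 in control cells. MRPL33, a large-subunit protein with a bacterial homologue, carried 15.7, 20.8 and 24.2 reads in overexpression cells against 53.8, 67.3 and 58.2 in control cells. MRPS28, the mitochondrial relative of bacterial ribosomal protein S1, carried 5.79, 6.42 and 12.5 reads in overexpression cells against 34.0, 33.7 and 29.9 in control cells. For all 3 genes every overexpression library lay below every control library. The log2 changes were -1.64 ± 0.32 for MRPS31, -1.53 ± 0.29 for MRPL33 and -1.93 ± 0.37 for MRPS28, with adjusted p of 0.0036, 0.0032 and 0.0030. These 3 calls and that of MRPS6 held in all 6 leave-one-out fits and under total reads. Peaks were shared with BABAM2 for 70.9% of MRPL33 reads and with TPD52 for 67.9% of MRPS28 reads, while those of MRPS31 were listed under no other gene. The number of peaks went the other way for MRPS31 and MRPL33, with log2 changes of 0.40 and 0.34.

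MRPS16 and MRPS27, both well-read small-subunit genes, did not pass the test. MRPS16, whose protein has a bacterial homologue, carried 145, 173 and 159 reads in overexpression cells against 238, 316 and 146 in control cells, and MRPS27, a pentatricopeptide repeat protein, carried 134, 125 and 142 against 96.2, 127 and 136. The conditions overlapped for both, and the log2 changes were -0.48 ± 0.28 and 0.17 ± 0.20 (adjusted p = 0.17 and 0.49). Without control replicate 3 MRPS16 passed, at -0.79 (adjusted p = 0.0113). The other 8 genes tested without a call had log2 changes between -0.81 (MRPS18C) and 0.71 (MRPL49). Libraries of the conditions did not overlap in 5 genes on the higher side, where the background was 35.7%, and in 5 on the lower side, where it was 34%.

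**Figure D2:**
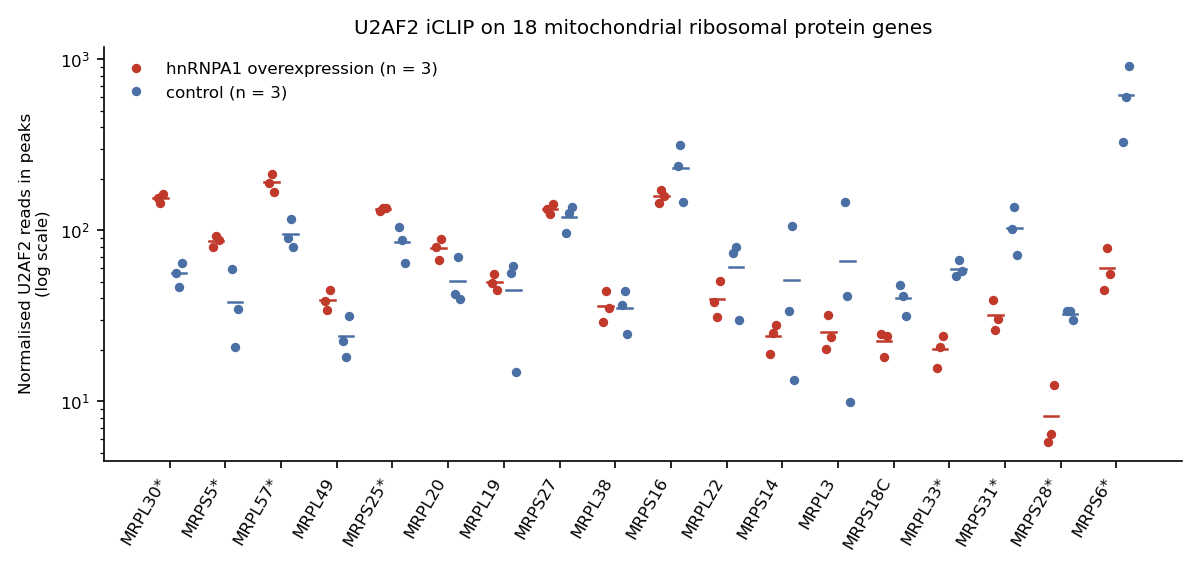
Normalised U2AF2 reads in peaks (log scale) for the 18 mitochondrial ribosomal protein genes with a peak in every U2AF2 library, 3 overexpression libraries left of 3 control libraries for each gene. Asterisks mark the 8 genes past the limma threshold, from MRPL30 with 145 to 162 reads in overexpression and 46.6 to 64.8 in control to MRPS6 with 45.1 to 79.0 and 328 to 917.

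Peaks appeared in every U2AF2 overexpression library and in no control library for 7 of the 58 genes with any U2AF2 peak, where the background was 9.32%. MRPL10, a protein at the base of the ribosomal stalk, carried 45.9, 40.5 and 51.4 reads in overexpression cells, and MRPS10, a small-subunit protein with a bacterial homologue, carried 48.0, 51.9 and 44.6. Both were listed at 0 in all 3 control libraries, although the smallest peak that could be listed was worth 17.0, 15.5 and 9.97 normalised reads in those libraries. They were also the 2 genes left with the peak minimum scaled to depth, where the background was 5.17%. MRPL15, MRPL35, MRPL58 (a peptidyl-tRNA hydrolase built into the large subunit), MRPS18A and MRPS7 ranged from 3.31 to 13.7 reads in overexpression cells, below the smallest peak that control replicates 1 and 2 could list. Without overexpression replicate 3 the count was 8 of 54 genes, with MRPL24 added, where the background was 11.9%.

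The reverse pattern, a peak in every control library and in no overexpression library, held for MRPL32 and MRPL36, which were 2 of 58 genes where the background was 0.828%. Both are large-subunit proteins with bacterial homologues. MRPL32 was listed at 0 in overexpression cells against 31.1, 98.4 and 39.9 reads in control cells, and MRPL36 at 0 against 17.0, 18.1 and 13.3. The smallest peak that could be listed was worth 2.14 to 2.96 normalised reads in the overexpression libraries. With the scaled minimum the genes in this class were MRPL32, MRPL33 and MRPS6, without MRPL36, against a background of 8.88%.

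The sites with U2AF2 peaks differed between conditions within single genes, as far as peaks were listed. Overlapping peaks of all libraries were merged into sites on each strand, and the genes held 451 sites with U2AF2 reads. Of these, 69 sites in 32 genes had a peak in every overexpression library and in no control library, 11 of them above the smallest control peak and the others not, while 7 sites in 6 genes had a peak in every control library and in no overexpression library, and 7 sites in 6 genes had one in all 6. Without overexpression replicate 3 the first 2 counts were 82 sites, 12 of them above the smallest control peak, and 7 sites. The smallest peak that could be listed was worth 9.97 to 17.0 normalised reads in control libraries against 2.14 to 2.96 in overexpression libraries. The 69 and 7 sites were not set against such sites over all genes, so their imbalance is no result about this set. Coordinates are on hg19, and exon or intron positions were not annotated here.

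The 11 sites above the smallest control peak lay in 11 genes, led by MRPL30 at chr2:99812273-99812563 on the plus strand with 61.8 ± 7.0 reads (SD, n = 3). MRPS16 had 50.1 ± 5.6 reads at chr10:75009575-75009762 on the minus strand, MRPS27 45.6 ± 3.6 at chr5:71516088-71516201 on the minus strand, and MRPL10 43.2 ± 5.4 at chr17:45906505-45906611 on the minus strand. MRPL57 had 34.4 ± 5.5 reads at chr13:21752318-21752372 on the plus strand. The others, in MRPS5, MRPL38, MRPL52, MRPS10, MRPS14 and MRPL22, held between 19.5 ± 2.2 and 29.0 ± 4.1 reads. All 11 were at 0 in the 3 control libraries. All MRPL30 reads lay in peaks shared with other genes, as did 51.1% of MRPS5, 27.4% of MRPL38 and 8.71% of MRPS16 reads. Sharing was not split by site, so sites in these 4 genes may not belong to them alone.

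The sites found in control cells only lay in MRPS16, MRPS14, MRPL38, MRPL22, MRPS27 and MRPL36. MRPS16 held the one with the most reads, at chr10:75008999-75009208, which was listed at 0 in overexpression cells against 181, 137 and 61.5 reads in control cells. A second MRPS16 site at chr10:75009228-75009313 was at 0 against 48.7 ± 11.4 reads. The gene is on the minus strand, and both sites lie just downstream of its overexpression site given above. Another MRPS16 site found in overexpression cells only, at chr10:75008693-75008772, lies downstream of both. It held 19.3 ± 3.9 reads and was not above the smallest control peak. In MRPS27 the control site at chr5:71590537-71590632 was at 0 against 25.5 ± 12.2 reads and lies upstream of the overexpression site.

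Among genes with a peak in every U2AF2 library, both kinds of site occurred together in 5 of the 18 (MRPL22, MRPL38, MRPS14, MRPS16 and MRPS27), where the background was 6.58%. Sites of the overexpression kind above the control floor occurred in 8 of the 18, against 19.2% of all such genes, and sites of the control kind in 5 of the 18, against 25%. None of the 5 genes with both kinds passed the test on summed reads. Sites are separate measurements of the same libraries, and library depth differed between conditions as given above; its part in these counts was not tested beyond the floor.

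Sites with a peak in all 6 libraries showed changes in both directions. MRPL57 had 104 ± 14.0 reads at chr13:21752835-21752945 in overexpression cells against 63.8 ± 13.1 in control cells. MRPS25 had 86.3 ± 11 reads at chr3:15092498-15093000 on the minus strand against 33.6 ± 15.8. MRPL30 at chr2:99812709-99812916 had 15.6 ± 2.6 reads in overexpression cells against 29.7 ± 3.8 in control cells. This site lies a short way downstream of the MRPL30 overexpression site given above. It had fewer reads while the gene as a whole had more. These site values are descriptions without a test.

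**Figure D3:**
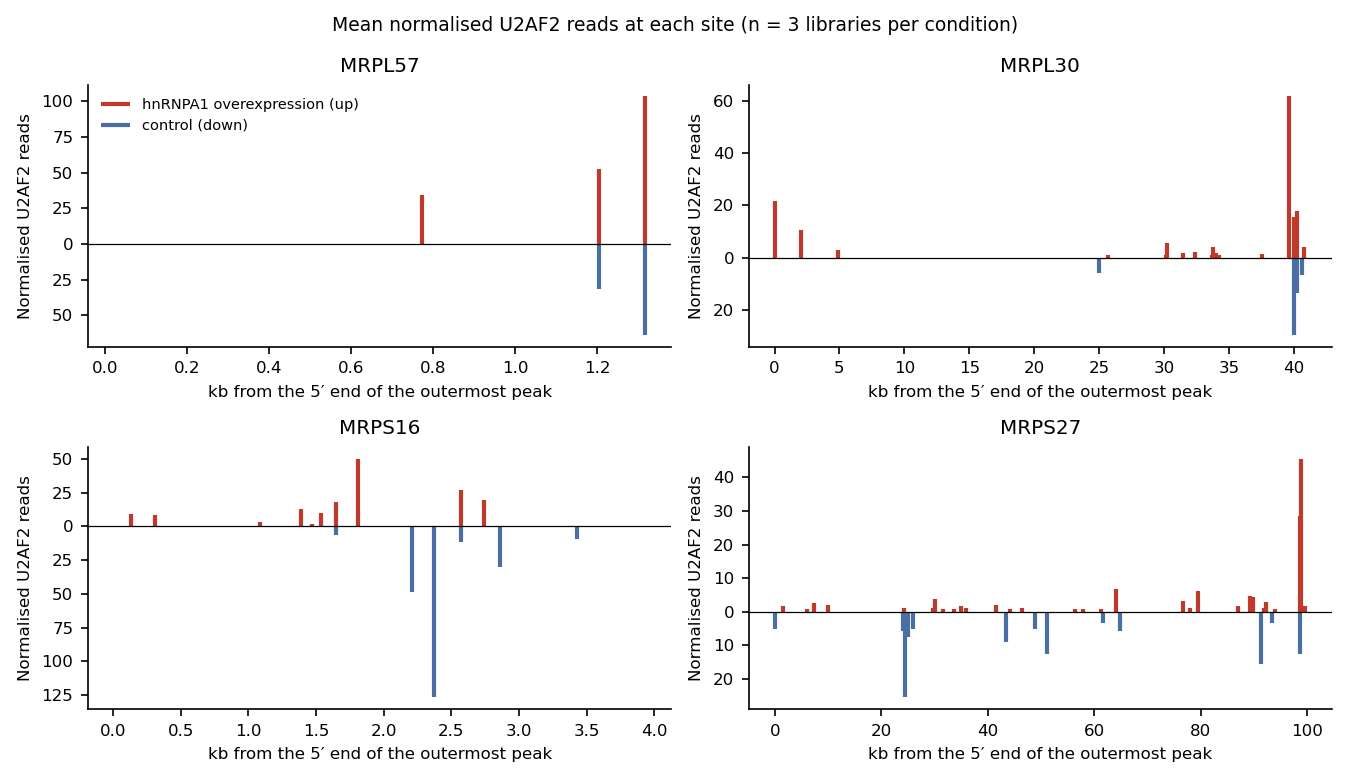
Mean normalised U2AF2 reads at each site of MRPL57, MRPL30, MRPS16 and MRPS27 by distance in kb along the strand, overexpression drawn upwards and control downwards (n = 3 libraries each). In MRPS16 a site with 50.1 reads in overexpression and none in control stands beside one with none in overexpression and 127 in control, and in MRPL57 control reads are at 2 of the 3 overexpression sites.

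A larger share of U2AF2 reads on these genes lay near the 3′ end in overexpression cells. For the 52 genes with at least 5 peaks, the span of each gene was taken between its outermost peaks, and its last 25% held 44.8%, 42.3% and 43.8% of U2AF2 reads in overexpression libraries against 26.4%, 22.2% and 22.5% in control libraries. The conditions did not overlap. Without MRPS6 the values were 45.6%, 43.8% and 45.0% against 31.6%, 29.4% and 38.9%. The same measure over all 13520 genes was 42.3% ± 0.17 in overexpression against 29.9% ± 0.61 in control, which is the same direction. Counted in peaks in place of reads, the last 25% held 37.3%, 36.4% and 35.2% in overexpression against 28.8%, 20.9% and 26.25% in control for the mitochondrial ribosomal protein genes. Over all genes the shares of peaks overlapped, at 30.5%, 31.1% and 32.5% in overexpression against 30.9%, 31.4% and 29.8% in control. This contrast did not hold with peaks of at least 12 reads. All genes were then apart, at 36.4%, 37.2% and 36.9% in overexpression against 32.7%, 33.0% and 32.0% in control. The genes of the set without MRPS6 then overlapped, at 42.9%, 42.0% and 42.3% against 31.25%, 46.7% and 47.1%. For hnRNPA1 the share of reads ran the other way, with 15.8% ± 2.8 in overexpression against 22.7% ± 0.21 in control (n = 2 each). Without MRPS6 it was 22.2% ± 2.2 against 36.0% ± 0.62. Over all genes the hnRNPA1 share had the same direction, at 20.1% ± 0.15 against 25.2% ± 0.27. For SRSF1 the share of reads was 39.8% ± 1.8 against 51.5% ± 19.8 (n = 3 each), and the conditions overlapped. Over all genes it was 35.6% ± 0.62 against 37.2% ± 2.2.

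**Figure D4:**
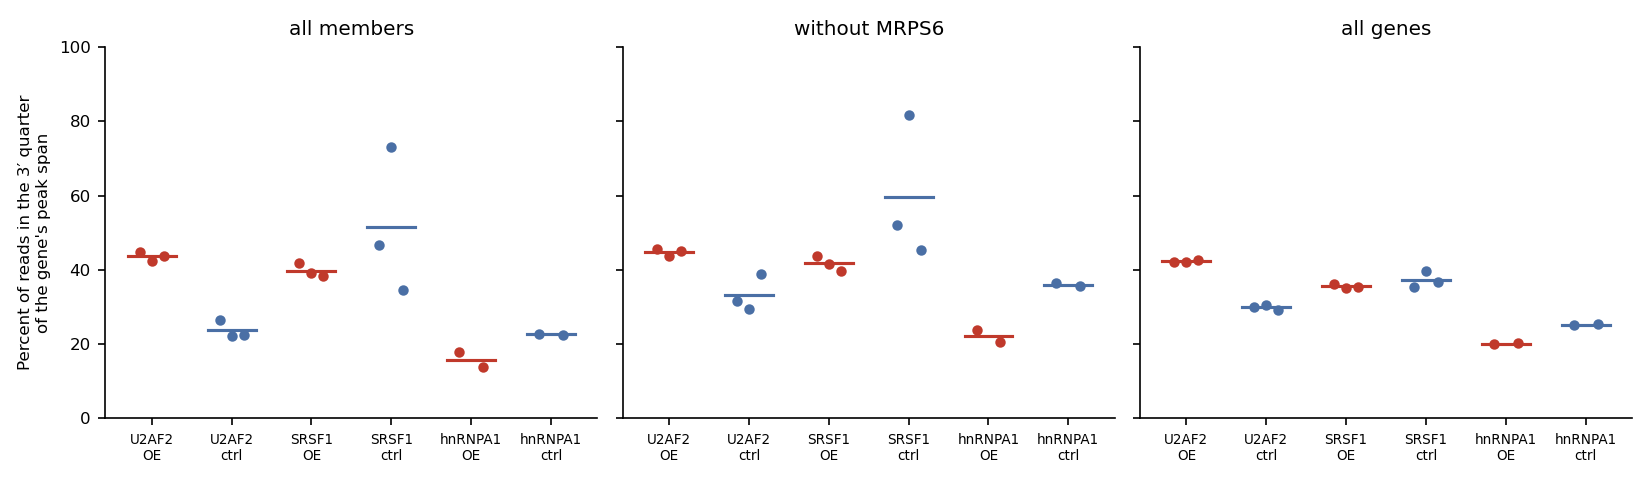
Percent of reads in the 3′ 25% of each gene's peak span, for the mitochondrial ribosomal protein genes, the same without MRPS6, and all genes. Points are libraries and lines are means, overexpression (OE) left of control (ctrl); U2AF2 points lie at 42.3% to 44.8% in overexpression and 22.2% to 26.4% in control in the left panel.

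In the hnRNPA1 libraries 19 of the genes could be tested, of which 2 fell, none rose, and 17 did not pass the test. Across all 5738 genes the call was made for 17.8%, with 9.5% higher and 8.33% lower. The median log2 change was -0.21 over the 19 genes and 0.01 over all genes tested. MRPS30, which despite its name sits in the large subunit, carried 63.8 and 49.0 reads in overexpression cells against 203 and 188 in control cells. MRPS6 carried 484 and 635 reads in overexpression cells against 1127 and 1115 in control cells. Both genes lay lower in each overexpression library than in each control library, with log2 changes of -1.79 ± 0.32 and -1.01 ± 0.18 (adjusted p = 0.0192 and 0.0183). The MRPS30 call was lost without control replicate 1 or without control replicate 2 (adjusted p = 0.109 and 0.0723).

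The other well-read genes in the hnRNPA1 libraries did not pass the test. MRPL3, a large-subunit protein with a bacterial homologue, carried 168 and 158 reads in overexpression cells against 31.3 and 119 in control cells, and MRPL42 149 and 127 against 71.2 and 72.7. The overexpression libraries were the higher ones for both, and the log2 changes of 1.40 and 0.93 had adjusted p of 0.133 and 0.0810. Without control replicate 2 MRPL3 passed, at 2.31 (adjusted p = 0.0111), and without control replicate 1 it was 0.43; MRPL42 passed without overexpression replicate 2, at 1.06 (adjusted p = 0.0438). MRPS25 carried 210 and 187 reads against 271 and 228, and MRPS27 123 and 172 against 109 and 163, so that only MRPS27 overlapped between conditions. Libraries did not overlap in 4 of the 19 genes on the higher side (background 32.7%) and in 9 on the lower side (background 33%). Without overexpression replicate 1 the median log2 change was -0.28 over 22 genes, against 0.03 over all 7331. Without control replicate 1 it was -0.22 over 19 genes, against -0.02 over all 5761.

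hnRNPA1 peaks in both control libraries and in neither overexpression library were found for 19 of the 57 genes with any hnRNPA1 peak, where the background was 27.3%. MRPS9, a small-subunit protein with a bacterial homologue, was listed at 0 in overexpression cells against 38.7 and 31.6 reads in control cells. MRPS22 was at 0 against 42.6 and 23.0, and MRPL49 at 0 against 24.2 and 30.7. MRPL52, MRPL44, MRPS18A, MRPL37, MRPL27, MRPS15 and MRPL38 were at 0 against 8.99 to 27.8 reads. The smallest peak that could be listed was worth 14.2 and 13.4 normalised reads in the overexpression libraries against 2.35 and 2.71 in the control libraries. With the minimum scaled to depth, 4 of 33 genes (MRPL27, MRPL30, MRPL49 and MRPL52) had this pattern, with a background of 8.42%, and 3 (MRPL1, MRPL14 and MRPS35) had the reverse pattern, with a background of 13.6%. At 6 reads no gene had the reverse pattern, where the background was 0.141%.

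The SRSF1 libraries were the shallowest of the 3 proteins and held few reads on these genes. In them 2 of the genes had a peak in all 6 libraries. MRPS6 carried 7.67, 13.4 and 6.02 reads in overexpression cells against 25.3, 28.3 and 56.2 in control cells. MRPS25 carried 24.1, 7.04 and 45.9 reads in overexpression cells against 96.4, 73.2 and 94.1 in control cells. Both lay lower in every overexpression library. MRPS6 fell, with a log2 change of -1.88 ± 0.47 (adjusted p = 0.0376), and MRPS25 at -2.06 ± 0.57 did not pass the test (adjusted p = 0.0549). The background was 6.78% of 1845 genes called, 4.17% higher and 2.6% lower. The MRPS6 call was lost in 5 of the 6 leave-one-out fits (adjusted p up to 0.140), and MRPS25 passed with total reads as the scale, with a pseudocount of 5 and with the replicate block.

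The next best-read genes in the SRSF1 libraries were missing from 1 control library each. MRPS16 carried 23.0, 35.8 and 21.8 reads in overexpression cells against 25.3, 9.98 and 0 in control cells, and MRPL57 25.2, 25.6 and 17.3 against 20.6, 26.6 and 0. MRPL20, a large-subunit protein with a bacterial homologue, carried 15.3, 25 and 15 against 19.7, 0 and 21.6. MRPL30 carried 13.2, 22.4 and 6.02 against 6.55, 0 and 13.0. The conditions overlapped for all 4 genes. MRPS26 and MRPS10 had SRSF1 peaks in every overexpression library and no control library (2 of 32 genes, background 2.98%), with 3.84 to 6.58 reads, and MRPS31 had the reverse (background 0.888%), at 0 against 5.62, 11.6 and 16.2 reads. With the minimum scaled to depth 1 of 21 genes, MRPL3, was found in overexpression libraries only (background 0.916%), and none in control libraries only (background 5.91%).

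**Figure D5:**
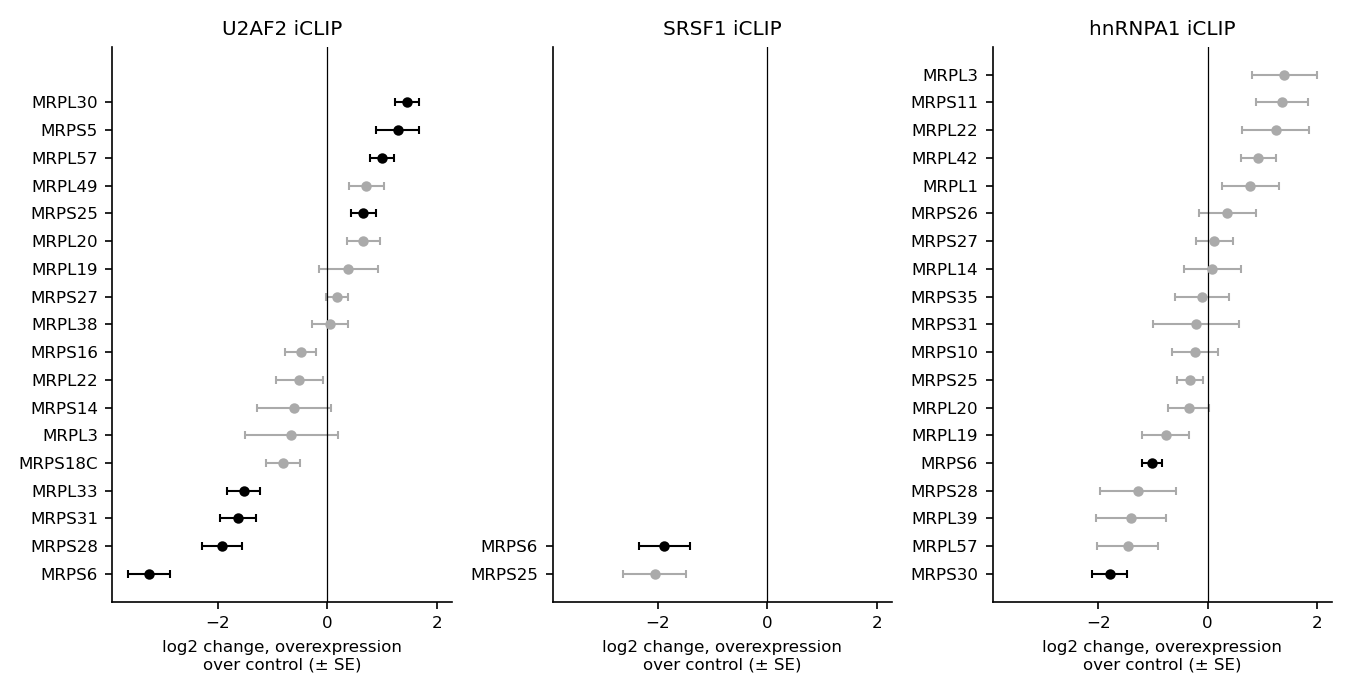
Log2 change of overexpression over control (± SE) of every gene of the set with a peak in all libraries of a protein, 18 for U2AF2, 2 for SRSF1 and 19 for hnRNPA1. Black points passed the limma threshold; MRPS6 lies below 0 in all 3 panels, at -3.26, -1.88 and -1.01.

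The responses of the proteins were compared by the interaction of protein and condition. Against SRSF1, MRPS25 differed, with a U2AF2 minus SRSF1 log2 difference of 2.62 ± 0.69 (adjusted p = 0.0077), and MRPS6 at -1.40 ± 0.63 did not (adjusted p = 0.0803). The background was 49% of 1650 genes, with 19.8% higher and 29.2% lower. Against hnRNPA1, 4 of 10 genes differed, where the background was 48.9% of 4393 genes, with 25.2% higher and 23.7% lower. MRPL57 at 2.91 ± 0.57, MRPL20 at 1.43 ± 0.48 and MRPS25 at 1.42 ± 0.37 were higher for U2AF2, and MRPS6 at -1.80 ± 0.52 was lower (adjusted p = 0.0015, 0.0293, 0.0085 and 0.0142). MRPL20 lost its call in 6 of the 10 leave-one-out fits, and MRPS6 lost it without hnRNPA1 control replicate 2 (adjusted p = 0.0503) and on the total-read scale (adjusted p = 0.0665).

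U2AF2 peaks on these genes met hnRNPA1 control peaks by at least 1 nt on the same strand in 36.7% ± 3.1 of cases in overexpression libraries against 45.5% ± 3.5 in control libraries (n = 3 each). SRSF1 peaks did so in 89.0% ± 10.5 against 58.2% ± 11.1, which rested on 16, 33 and 24 peaks per library in overexpression and 26, 17 and 24 in control. Over all genes the means were 31.2% against 43.6% for U2AF2 and 67.5% against 64.9% for SRSF1. Depth differed between conditions, and its part in these shares was not tested.

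Subunits of the mitochondrial ribosome with other symbols were read as well. DAP3, a small-subunit GTP-binding protein, carried 238, 266 and 283 U2AF2 reads in overexpression cells against 99.0, 137 and 155 in control cells, and rose by 1.03 on the log2 scale. PTCD3, a small-subunit pentatricopeptide repeat protein, carried 145, 171 and 146 U2AF2 reads in overexpression cells against 1067, 1209 and 1078 in control cells, and 317 and 350 hnRNPA1 reads in overexpression cells against 171 and 136 in control cells. Every library followed its condition, with log2 changes of -2.85 for U2AF2 and 1.12 for hnRNPA1, both past the limma threshold.

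Genes that serve the mitochondrial ribosome were called in both directions in the U2AF2 libraries, where the background was 30.2% higher and 31.6% lower. Of 9 translation factor genes tested, MTRFR (1.41) rose and MRRF (-1.82) and MTRF1 (-0.75) fell on the log2 scale. Of 14 assembly and rRNA modification genes tested, 5 rose, among them NSUN4 (1.57), an rRNA methyltransferase, and 5 fell, among them TFB1M (-3.11), which dimethylates the small-subunit rRNA, and METTL17 (-2.58). Among mitochondrial aminoacyl-tRNA synthetase genes, AARS2 (1.33) rose and CARS2 (-0.81) and IARS2 (-1.23) fell. With total reads as the scale MTRF1 and DHX30, another of the assembly genes that fell, turned to 0.04 and 0.08, and IARS2, CARS2, MRRF, MTG1 and METTL15 stayed below 0 without passing the test. In the hnRNPA1 libraries MTRFR (-1.83), ERAL1 (-1.80) and FARS2 (-1.47) fell and RARS2 (1.07) rose.

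In the authors' deposited table of 251 skipped-exon events, which was limited to events with a large difference in at least 1 pair of samples, 1 event overlapped the peak span of a mitochondrial ribosomal protein gene, MRPS28. The table names no gene, and TPD52 shares part of this span, so the exon cannot be given to MRPS28 with certainty. Exon inclusion was 0.04 and 0.02 in the overexpression samples against 0.50 and 0.03 in the control samples. Control replicate 2 lay between the overexpression samples, so the difference was in control replicate 1 alone. The authors' deposited Bayes factors were 16.4 and 41 for the pairs with that sample and 0.08 and 0.05 for the pairs with the other control sample.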

How the data were processed

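Per the file headers, TopHat aligned the iCLIP reads to hg19, repeats were filtered, and CLIPper (pre-mRNA mode) called peaks library by library; the submitters' processing notes name TopHat and Bowtie2 without versions. Each deposited peak name holds the gene, a peak number and the reads in the peak, which was the value used; the authors' CLIPper p-value was not used to select peaks. RNA-seq was used only through the authors' deposited table of exon inclusion, given as fractions, with the authors' difference score for each pair of samples (control minus overexpression, sign turned here) and Bayes factors, which are ratios. No gene-level RNA-seq values were analysed here, and 0 columns of per-sample values were left unused.

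Members, lists and tests were chosen with earlier results of these data known. Peaks of at least 6 reads were summed per gene and library, because U2AF2 overexpression replicate 3 alone was deposited down to 3 reads and with versioned gene IDs, so that its calling settings or annotation may differ, and divided by median-of-ratios size factors. limma 3.58.1 (R 4.3.3; lmFit, eBayes with trend) was fitted to log2(value + 1) over every gene with a peak in all libraries of a protein. P-values were two-sided, adjusted by Benjamini-Hochberg over all those genes, with a threshold of 0.05. Fold changes are on this log2 scale, which understates the change of low genes. The U2AF2 minus hnRNPA1 comparison, peaks listed under 1 gene only, the shares without MRPS6 and the presence counts without U2AF2 overexpression replicate 3 were added after seeing the data. The fit was tested on simulated data. Python 3.11.15, numpy 2.4.6, pandas 2.3.3 and matplotlib 3.10.9 did the rest.

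Genes named per protein were every gene called, the 6 with the most reads, up to 10 per direction found in 1 condition only, and the one in the exon table; site genes, the range ends and the genes outside the MRPL and MRPS symbols were named after their values were seen. Not every gene of the other lists is reported here. Alternatives were other gene filters, total reads as scale, a pseudocount of 5, peaks as deposited, a peak minimum scaled to depth, peaks of at least 12 reads, the number of peaks, peaks covered by 50%, the replicate block, and each library left out.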

Additional observations from a re-analysis of the deposited data

Results flagged for a closer look

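Responses that differed between proteins by the interaction test (limma, adjusted p under 0.05) were those of MRPS25 for U2AF2 minus SRSF1, at 2.62 on the log2 scale, and for U2AF2 minus hnRNPA1 those of MRPL57 at 2.91, MRPL20 at 1.43, MRPS25 at 1.42 and MRPS6 at -1.80.

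A further 10 of 43 genes with peaks for both proteins, but not in every library, had more U2AF2 reads in every overexpression library than in any control library and fewer hnRNPA1 reads in every overexpression library than in any control library, and for these the difference was not tested because peaks were missing from some libraries. The same pattern held for 29.2% of the 8933 such genes in the whole series. The difference of the log2 ratios of means, after adding 1, was 8.29 for MRPL10, 7.51 for MRPL52, 7.28 for MRPS18A, 6.52 for MRPL35, 6.41 for MRPS22, 5.90 for MRPL44, 5.84 for MRPS10, 5.51 for MRPL49, 4.54 for MRPS7 and 3.67 for MRPL30. MRPL52, a mitochondria-specific large-subunit protein, carried 120, 133 and 112 U2AF2 reads in overexpression cells against 48.1, 0 and 0 in control cells, while its hnRNPA1 reads were 0 and 0 against 24.6 and 23.9. Values listed at 0 set the size of these differences, and depth ran the opposite way between conditions for the 2 proteins; its part was not tested.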

How the results depend on the processing

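Counts of calls depended on the gene filter and on how peaks were counted, and the cause was not tested. Where a gene needed a peak in only 50% of libraries, the members called were 18 of 47 for U2AF2 (5823 of 12709 genes), 3 of 16 for SRSF1 (466 of 5598), 22 of 48 for hnRNPA1 (4791 of 12461), 4 of 28 for U2AF2 minus SRSF1 (1184 of 8801) and 17 of 45 for U2AF2 minus hnRNPA1 (5441 of 11902); for hnRNPA1 21 of the 22 members and 4254 of the genes were lower. With no filter they were 16 of 58 (5576 of 16542 genes), 0 of 32 (29 of 9230), 19 of 57 (4519 of 14214), 9 of 59 (2777 of 16719) and 24 of 62 (6398 of 17430), in the same order; these wider fits include genes that passed through 1 condition only. The number of peaks gave 3 members and 1648 genes, 0 and 15, 0 and 384, 0 and 201, and 0 and 757. The scaled minimum gave 3 of 9 members for U2AF2 (2783 of 4272 genes) and 2 of 3 for U2AF2 minus hnRNPA1 (1609 of 2238 genes). No member could be tested for SRSF1 or U2AF2 minus SRSF1, and 454 of 692 genes were called in the latter. Peaks listed under 1 gene only gave 3 of 13 U2AF2 members (3778 of 6161 genes). They gave 0 of 1 SRSF1 members (27 of 1561 genes) and 1 of 17 hnRNPA1 members (862 of 5281 genes). SRSF1 members called were 2 of 2 with total reads, with a pseudocount of 5 and with the replicate block, against 171, 128 and 111 of all 1845 genes. Genes in 1 condition only under the scaled minimum numbered 2 (U2AF2, overexpression), 1 and 0 (SRSF1, overexpression and control), and 3 and 4 (hnRNPA1, overexpression and control).

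Leaving out 1 library gave 6 to 13 U2AF2 members (13 without control replicate 3) and 3382 to 4787 genes, 0 to 2 and 18 to 207 for SRSF1, 1 to 6 and 547 to 1677 for hnRNPA1, 1 to 2 and 650 to 1018 for U2AF2 minus SRSF1, and 2 to 5 and 1739 to 2576 for U2AF2 minus hnRNPA1. MRPS27 ranged from -0.0077 to 0.26 for U2AF2 and from -0.19 to 0.44 for hnRNPA1.

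Directions turned with the number of peaks for MRPL33 (0.34), MRPL57 (-0.10), MRPS16 (0.22) and MRPS31 (0.40) in U2AF2, MRPS6 (0.47) for U2AF2 minus SRSF1, and MRPL20 (-0.32) and MRPL57 (-0.54) for U2AF2 minus hnRNPA1. They turned with total reads for MRPS16 (0.30, U2AF2) and MRPS27 (-0.046, hnRNPA1), with the scaled minimum for MRPS27 (-0.32, U2AF2), and on peaks of 1 gene only for MRPS5 (-0.11, U2AF2). Of the other single-gene values 289 kept direction and call, 40 lost the call and 14 gained it.

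On peaks of 1 gene only the shares of reads were 0.168% in overexpression against 0.0816% in control for U2AF2, a control share of 0.135% for SRSF1, and 0.106% against 0.167% for hnRNPA1. The shares without MRPS6 and with the scaled minimum stand with the result: 0.171% against 0.0823%, a control share of 0.122%, 0.106% against 0.168%; and 0.173% for U2AF2 overexpression, 0.0552% against 0.107% and 0.143% against 0.246%. With peaks of at least 12 reads the 3′ share was 49.8% ± 1.2 in overexpression against 23.9% ± 6.7 in control for U2AF2 (without MRPS6 50.2% ± 1.2 against 40% ± 10.7), 31.5% ± 21.6 against 70.2% ± 29.9 for SRSF1 and 13.2% ± 3.8 against 19.5% ± 0.41 for hnRNPA1. Overlap with hnRNPA1 peaks was then 54.2% ± 6.3 against 64.6% ± 8.8 for U2AF2 and 100% ± 0 against 77.8% ± 38.5 for SRSF1. The SRSF1 values rested on 5, 8 and 8 peaks per library in overexpression and on 4, 3 and 4 in control. At 6 reads and with 50% of the peak covered, U2AF2 overlap was 31.3% against 41.0%.

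Same-numbered replicates showed no shared deviation. The correlations were -0.0099, 0.0137 and -0.0034 for U2AF2, -0.0112, 0.0074 and -0.0135 for SRSF1 and 0.0148 for hnRNPA1. With 2 hnRNPA1 libraries per condition, pairs of other numbers mirror that value, at -0.0148. Such correlations cannot show whether the numbers pair the samples, and the main tests took the samples as unpaired. With the replicate block, 7 members and 4005 genes were called for U2AF2, 2 and 111 for SRSF1, 2 and 1088 for hnRNPA1, 1 and 761 for U2AF2 minus SRSF1, and 3 and 2071 for U2AF2 minus hnRNPA1.

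The libraries differ in depth by condition, and a peak list holds nothing under its smallest peak, so reads below that size were not detectable in a gene or site at 0. Transcript levels were not analysed here, and reads in peaks shared by genes cannot be assigned to one of them.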
